A study of Mus musculus with 2 samples.

Results

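Esx1 and 4 genes of the Rhox cluster, Rhox5, Rhox8, Rhox10 and Rhox13, were examined in testes of 9-day-old mice with and without Bcas2 in the germ line. The 5 genes were taken by symbol out of 39695 gene entries, and they were chosen by values measured in these same libraries, so their ratios are given as a description and were not tested. In the Bcas2F/-;Vasa-Cre library Esx1 stood at 29.9% of its control level and Rhox13 at 48.9%. Rhox10 was at 72.6%, and Rhox5 and Rhox8 were listed at 0 in both libraries.

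Homeobox genes encode transcription factors that bind DNA through a homeodomain, a fold of helices whose last helix enters the major groove. The Rhox (reproductive homeobox) genes form a cluster on the mouse X chromosome and are expressed mainly in testis, epididymis, ovary and placenta. Rhox5, also called Pem, and Rhox8 are known from Sertoli cells, the somatic cells that nurse the germ cells, where Rhox5 responds to androgen. Rhox10 and Rhox13 are known from germ cells, and Rhox10 has a role in establishing spermatogonial stem cells. Esx1 lies elsewhere on the X chromosome, is related to the paired class of homeobox genes, and is known from placenta and male germ cells.

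One RNA-seq library was made from whole testes of control males and 1 from whole testes of Bcas2F/-;Vasa-Cre males, both 9 days old and labelled C57BL/6, while the study's methods describe a mixed background for the line. Per the study's methods, the control males were Bcas2F/-, which carry a floxed and a deleted Bcas2 allele and no Cre, so both groups carried the deleted allele. Vasa-Cre acts in germ cells only, so that Sertoli, Leydig and other somatic cells of the mutant testis keep the floxed allele. The number of mice behind each library was not given in the sources used here. With 1 library per genotype there is no replicate check, and every interval below covers counting error only. The values are RPKM, reads scaled to transcript length and library size, and ratios are log2 of (RPKM + 1) in Bcas2F/-;Vasa-Cre over control unless said to be of reads.

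Bcas2, the targeted gene and a splicing factor of the Prp19 complex, was at 39.5 RPKM in the control and 25.7 RPKM in the Bcas2F/-;Vasa-Cre library, with 1410 and 888 reads and a log2 ratio of -0.60. Library sizes worked out from the RPKM values were 19918750 and 19331687 counted reads, well below the numbers of mapped reads in the study. Whether a counted read stands for a read or a read pair was not given in the sources used here. A mean RPKM of 1 or more was reached by 14831 genes, whose median log2 ratio was 0.02 with an SD of 0.26 across genes. Markers of spermatogonia, Sertoli and Leydig cells were detected. Of 7 epididymis markers only Crisp1 reached a mean RPKM of 1, at 2.77 RPKM in the control and 7.71 RPKM in the mutant library. Of 7 blood markers, with a summed level of 981 and 932 RPKM, 6 were lower in the mutant library, and 4 of them, the red-cell genes Hbb-bt and Slc4a1 and the neutrophil genes S100a8 and S100a9, passed 1.5-fold. Slc4a1 had 373 reads in the control and 14 in the mutant library, S100a9 had 101 and 4, and S100a8 had 92 and 6, so that these 3 had lower ratios (-3.38, -2.95 and -2.64) than any of the homeobox genes described. The part of these other cells in the results below was not tested.

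The 5 genes carry a related coding stretch. It is shown here because it lets their differences be seen. The stretch was found by searching each translated coding sequence for the pattern of the helix, so that its presence is no evidence of kinship. Each line is 30 bases of the reference coding sequence (GENCODE M21, sense strand) around the recognition helix, and the capitals run from the TGG codon of the helix over the next 5 codons.
Esx1: caggttTGGTTTCAGAACAGAAGGgccaag
Rhox13: aaggtgTGGTTTACCAATCGGAGAgcgaag
Rhox10: aaggctTGGTTTAAATATAAGAGAgctaaa
Rhox8: gagaacTGGTTTAAGAGTAGGAGAgccaaa
Rhox5: cagaatTGGTTTAAGATCAGGAGGgctgcg
The third codon after TGG was AAC in Esx1 and AAT in Rhox13, but TAT in Rhox10, AGT in Rhox8 and ATC in Rhox5. Over the 180-base homeobox, aligned on the TGG codon without gaps, Esx1 shared 60.6% of bases with Rhox8, 55.0% with Rhox13, 50.6% with Rhox10 and 44.4% with Rhox5. Rhox5 was the most distant member, at 37.8% to 44.4% with each of the others, and Rhox8 and Rhox10 shared 57.2%. The homeobox lies at bases 556 to 735 of the Esx1 coding sequence, 442 to 621 in Rhox13, 259 to 438 in Rhox10, 778 to 957 in Rhox8 and 355 to 534 in Rhox5. No transcript stretch of 50 bases in Esx1, Rhox5, Rhox10 or Rhox13 occurred in another annotated gene. In Rhox8, 52 of 1062 such stretches (4.90%) did.

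RefSeq promoter sequences of the 3 genes with reads are shown to give the DNA before their start sites. Each line is the 250 bases upstream of the RefSeq start on GRCm38.p6, 5′ to 3′ on the gene's own strand, from chrX:137120327-137120576 (minus strand) for Esx1, chrX:38120590-38120839 (plus strand) for Rhox13 and chrX:38066225-38066474 (plus strand) for Rhox10. The RefSeq start is that of GENCODE M21 for Rhox10, but lies 379 bases from it for Rhox13 and 1757 bases from it for Esx1, whose window falls inside the gene span annotated in GENCODE. Capitals mark the matches, on either strand, to any of 4 motifs. The TATA box was searched as TATAAA. For the GC box, a site of Sp1-like factors, the letters were GGGCGG. The E-box, bound by helix-loop-helix factors, was searched as CACGTG. The half-site of the androgen receptor was searched as TGTTCT.
Esx1: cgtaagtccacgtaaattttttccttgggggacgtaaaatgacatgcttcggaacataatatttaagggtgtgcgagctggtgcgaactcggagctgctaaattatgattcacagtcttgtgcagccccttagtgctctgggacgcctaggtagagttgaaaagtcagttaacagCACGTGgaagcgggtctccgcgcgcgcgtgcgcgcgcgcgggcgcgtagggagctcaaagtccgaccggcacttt
Rhox13: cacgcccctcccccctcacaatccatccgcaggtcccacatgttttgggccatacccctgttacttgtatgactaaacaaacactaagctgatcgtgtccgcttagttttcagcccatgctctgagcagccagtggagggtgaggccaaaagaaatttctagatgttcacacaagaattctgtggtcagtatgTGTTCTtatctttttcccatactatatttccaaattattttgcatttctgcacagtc
Rhox10: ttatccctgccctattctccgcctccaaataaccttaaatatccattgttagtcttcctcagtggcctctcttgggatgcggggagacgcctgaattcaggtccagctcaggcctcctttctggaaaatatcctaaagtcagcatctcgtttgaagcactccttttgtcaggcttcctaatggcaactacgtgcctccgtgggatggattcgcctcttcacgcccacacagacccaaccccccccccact
Esx1 held CACGTG, present in 6.02% of 32851 promoters of the same length, and Rhox13 held TGTTCT, present in 16.1%. Rhox10 held none of the 4 motifs. CpG dinucleotides numbered 24 in Esx1, 8 in Rhox10 and 4 in Rhox13, against a median of 6 over all promoters, and 88.0% of promoters had fewer than Esx1. No match says only that these letters were not in the window.

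Esx1 (ENSMUSG00000023443) lies at chrX:137115397-137122083 on the minus strand, with 3 annotated transcripts of up to 5 exons. It was at 11.2 RPKM (9.93 to 12.6, exact 95% Poisson interval) in the control library and at 3.35 RPKM (2.67 to 4.15) in the Bcas2F/-;Vasa-Cre library. These levels rest on 286 and 83 reads. The intervals did not overlap. The log2 ratio was -1.49, and that of the reads was -1.74 (exact 95% interval -2.11 to -1.38), a level 3.34-fold lower in the mutant library.

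Rhox13 (ENSMUSG00000050197) lies at chrX:38121219-38129967 on the plus strand, with 1 annotated transcript of 3 exons, at the end of the Rhox cluster. Its protein is known from spermatogonia and early spermatocytes, and its expression is known to be stimulated by retinoic acid. It was at 16.8 RPKM (14.9 to 18.9) in the control and at 8.22 RPKM (6.91 to 9.70) in the Bcas2F/-;Vasa-Cre library, from 293 and 139 reads. Again the control was the higher library, with no overlap of the intervals. The log2 ratio was -0.95, and that of the reads was -1.03 (-1.33 to -0.74), or 48.9% of the control level (39.7% to 60.0%).

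Rhox10 (ENSMUSG00000053909) lies at chrX:38066475-38071691 on the plus strand, with 1 annotated transcript of 3 exons. It was at 10.5 RPKM (8.90 to 12.2) in the control and at 7.59 RPKM (6.25 to 9.14) in the Bcas2F/-;Vasa-Cre library, from 159 and 112 reads. The control was higher, but the 2 intervals overlapped. The log2 ratio was -0.42 and did not reach 1.5-fold. On reads it was -0.46 (-0.82 to -0.10), which leaves out 0 for counting error alone.

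**Figure D1:**
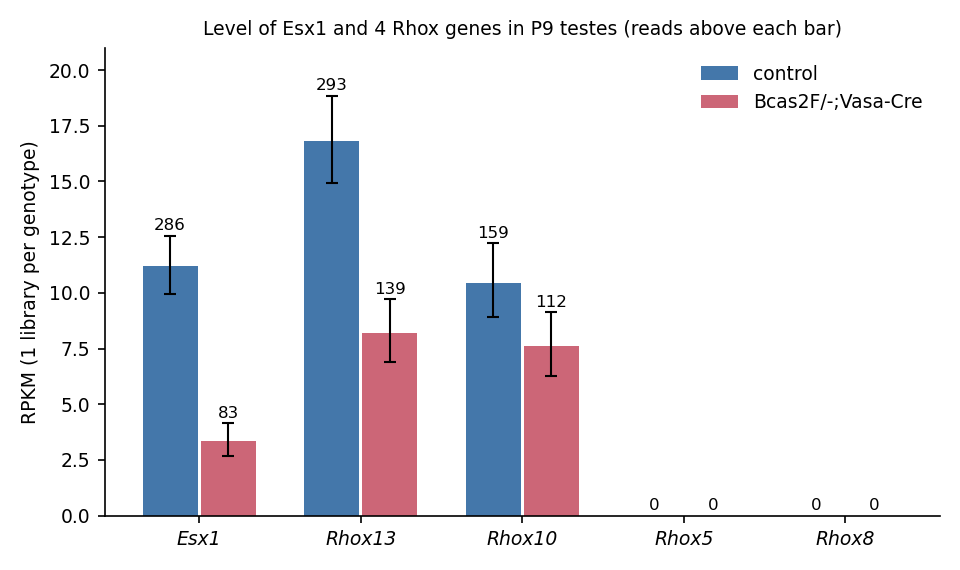
RPKM of the 5 genes in the control (blue) and Bcas2F/-;Vasa-Cre (red) library, with exact 95% Poisson intervals (counting error only) as error bars and the number of reads above each bar. Esx1 stands at 11.2 and 3.35 RPKM and Rhox13 at 16.8 and 8.22 RPKM, while Rhox5 and Rhox8 are listed at 0 in both libraries.

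In the control library Rhox13 was the most abundant of the 3 genes, and the intervals of Esx1 and Rhox10 overlapped. In the Bcas2F/-;Vasa-Cre library Rhox13 and Rhox10 had overlapping intervals and Esx1 was below both. The order of the ratios was Esx1, Rhox13, Rhox10. The read-ratio intervals of Esx1 and Rhox13 were narrowly apart, and those of Rhox13 and Rhox10 overlapped. Summed over the 3 genes, 738 reads in the control stood against 334 in the mutant library, a log2 ratio of -1.10 (-1.29 to -0.91).

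Of all 14831 genes, 6873 (46.3%) were lower and 7958 higher in the mutant library, the share beside which the list counts below stand. Across all 14831 genes, 251 (1.69%) lay past 1.5-fold on the lower side in the mutant library, 233 (1.57%) past 1.5-fold on the higher side and 56 (0.378%) past 2-fold on the lower side. Of the 5 genes, 3 passed the minimum mean of 1 RPKM, and 2 of these, Esx1 and Rhox13, were more than 1.5-fold lower. Since the genes were chosen by this contrast, nothing is read from that count. Ratios as low as that of Esx1 or lower were found in 19 genes (0.128%), as low as that of Rhox13 in 64 (0.432%) and as low as that of Rhox10 in 582 (3.92%). Among genes within 2-fold of their own mean level the numbers, each counting the gene itself, were 7 of 4156 for Esx1, 13 of 4967 for Rhox13 and 158 of 4529 for Rhox10. Protein-coding genes with a mean of 5 to 20 RPKM, where all 3 lie, had an SD of 0.22 in the log2 ratio, and 53 of 4317 (1.23%) were more than 1.5-fold lower.

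**Figure D2:**
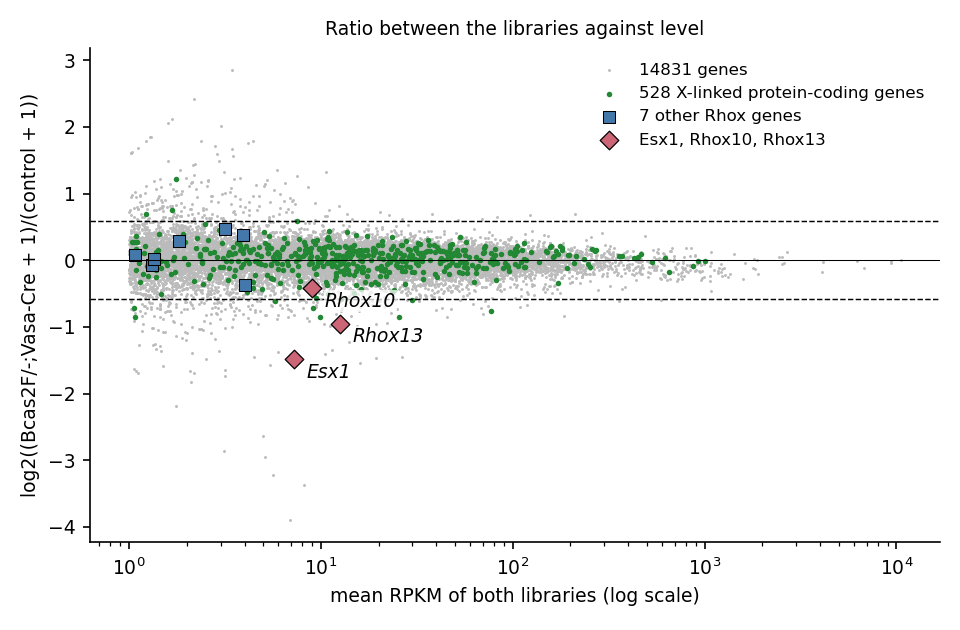
Log2 ratio of RPKM + 1 (Bcas2F/-;Vasa-Cre over control) against the mean RPKM of both libraries on a log axis, for 14831 genes (grey), 528 X-linked protein-coding genes (green), 7 other Rhox genes (blue squares) and Esx1, Rhox10 and Rhox13 (red diamonds). Dashed lines mark 1.5-fold. Esx1 at -1.49 and Rhox13 at -0.95 lie below every other X-linked protein-coding gene shown.

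Rhox5 (ENSMUSG00000095180, chrX:37804842-37808876, plus strand, 2 transcripts of up to 4 exons) and Rhox8 (ENSMUSG00000064137, chrX:37874778-37878944, minus strand, 1 transcript of 4 exons) were listed at 0 RPKM in both libraries. If their reads were countable, 0 reads would allow up to 0.217 RPKM of Rhox5 in the control and 0.224 RPKM in the mutant library (3 reads each), and up to 0.125 and 0.129 RPKM of Rhox8. No fold is given for either gene. Both are Sertoli-cell genes, while 11 Sertoli markers summed to 4082 RPKM in the control and 4431 RPKM in the mutant library.

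Their zeros were not isolated. Rhox5 and Rhox8 lay in a run of 10 consecutive genes listed at 0 in both libraries, chrX:37804842-38043114, which spans 238 kb. The other genes of the run were Rhox6, Rhox7a, Rhox7b, Rhox9, the pseudogenes Rhox11-ps1 and Rhox11-ps2, and Btg1-ps1 and Btg1-ps2, which GENCODE M21 types as protein-coding. On one side of the run the pseudogene Rhox2-ps was at 2.49 and 3.82 RPKM, and on the other Rhox10 was at 10.5 and 7.59 RPKM. Runs of at least 10 genes at 0 numbered 29 on the X chromosome and 165 in the genome. Zeros in both libraries were common, with 14481 of all 39695 entries and 194 of 928 X-linked protein-coding genes. None of 76 ribosomal protein genes, 39 proteasome genes or 13 RNA polymerase II subunit genes was listed at 0 in both libraries. Such genes are used by all cells and do not speak to genes limited to a few cell types. RefSeq sets the start of Rhox5 at base 37754608, 50234 bases before the start annotated in GENCODE M21. The cause of the zeros was not tested.

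A further 37 Rhox genes were listed. Of these, 11 were at 0 in both libraries, as were 14481 of all 39695 entries. Another 11 were above 0 but had a mean under 0.1 RPKM, and 15 had a mean of at least 0.1 RPKM. The highest value among them was 4.65 RPKM, below either value of Rhox10 and Rhox13. Only 7 reached a mean of 1 RPKM, of which 2 were lower and 5 higher in the mutant library, 0 passed 1.5-fold in either direction, and the median log2 ratio was 0.08, within -0.37 to 0.46.

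Rhox1, at the start of the cluster, was at 3.30 RPKM in the control and 4.57 RPKM in the mutant library, from 58 and 78 reads, a log2 ratio of 0.37. It lay on the other side of 0 from Esx1, Rhox10 and Rhox13, but its read-ratio interval (-0.04 to 0.99) included 0. Rhox2a was at 4.65 and 3.38 RPKM, from 71 and 50 reads, with a log2 ratio of -0.37 and a read-ratio interval (-1.01 to 0.08) that also included 0. The other Rhox genes with a mean of at least 1 RPKM were Rhox2c (1.38 and 1.26 RPKM), Rhox2d (1.54 and 2.11), Rhox2f (1.33 and 1.37), Rhox2h (1.02 and 1.14) and Rhox2-ps (2.49 and 3.82). With a mean from 0.1 to 1 RPKM there were Rhox2b, Rhox2e, Rhox2g, Rhox3f, Rhox4d, Rhox4e, Rhox4g and Rhox7-ps1. Single copies of Rhox2, Rhox3 and Rhox4 other than Rhox2-ps, which shared no such stretch, are uncertain, since 44.7% to 100% of the 50-base stretches of a copy were found in another gene, mostly a copy of its own family.

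Summed over copies, the 8 Rhox2 genes had 166 reads in the control and 144 in the mutant library, a log2 read ratio of -0.16 (-0.49 to 0.17), with the reads of Rhox2b rounded to whole numbers. The 8 Rhox4 genes had 32 and 15 reads, a ratio of -1.05 (-2.04 to -0.12), at a summed level of 1.17 and 0.556 RPKM. The 9 Rhox3 genes had 4 and 5 reads, too few for a difference to be detectable. How reads that match several copies were counted was not given in the sources used here, so the summed levels of these 3 families are uncertain too. Rhox11 and Rhox12, which lie between Rhox10 and Rhox13, each had 3 reads or fewer in both libraries together.

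**Figure D3:**
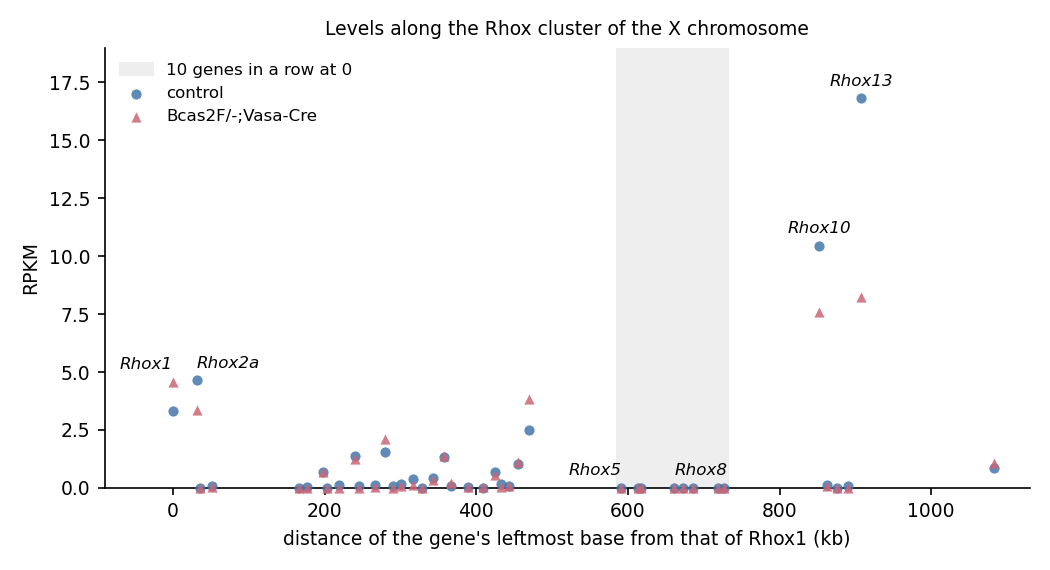
RPKM of each Rhox-cluster gene in the control (circles) and Bcas2F/-;Vasa-Cre (triangles) library against the distance in kb of its leftmost base from that of Rhox1. Rhox10 and Rhox13 stand at 10.5 and 16.8 RPKM in the control at the right end, beyond the shaded run of 10 genes at 0, and the other genes stay at or below 4.65 RPKM.

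The Rhox cluster, from Rhox1 to Rhox13, spans 916 kb and lies 99.0 Mb from Esx1. The flanking genes, the nearest on each side with a mean of at least 1 RPKM, had ratios between -0.04 and 0.15. Next to Esx1 these were Fam199x (log2 ratio -0.04) and Nrk (0.15), at distances of 32.9 kb and 1792 kb. Next to the cluster they were Gm9 (0.11) and Zbtb33 (0.07).

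Among 528 X-linked protein-coding genes the median log2 ratio was 0.04, and 222 were lower and 306 higher in the mutant library. Past 1.5-fold there were 11 lower genes (2.08%) and 4 higher genes. On this scale, with 1 added to each RPKM, Esx1 ranked first from the bottom, Rhox13 second and Rhox10 at position 22. The order depends on the added 1: by plain RPKM ratio they ranked 2, 4 and 26, below Esx1 came Otud6a at 28.4% of its control level, and Gja6 (1.57 and 0.564 RPKM) came between Esx1 and Rhox13. After Rhox13, the X-linked genes nearest to Esx1 in ratio were D330045A20Rik (13.1 and 6.79 RPKM, log2 ratio -0.86) and Otud6a (1.67 and 0.474 RPKM, -0.86), the latter from only 29 and 8 reads.

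A list of 44 autosomal homeobox genes was read, which is not the whole class and holds no Hox genes, and 34 reached a mean of 1 RPKM. Of these 34 genes, 11 were lower and 23 higher, with a median of 0.08, and all 34 had a higher ratio than Esx1 and Rhox13. Past 1.5-fold there was no lower gene and 1 higher gene. That gene was Six4, of the sine oculis family, at 1.78 RPKM in the control and 4.08 RPKM in the mutant library. The most abundant, the TALE-class genes Tgif1 and Pbx2, had ratios of 0.07 and -0.29.

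All 13 X-linked spermatogonial genes measured were lower, with a median of -0.29 and a summed level of 463 RPKM in the control and 371 RPKM in the mutant library. Their ratios ran from -0.85 to -0.005. Tex11, needed for meiotic recombination, was at 33.2 and 18.0 RPKM, and Tex16 at 7.18 and 4.35 RPKM. These 2 were more than 1.5-fold lower, while the most abundant, Taf7l, a germ-cell relative of a general transcription factor subunit, was at 191 and 151 RPKM.

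Of 19 spermatogonia markers, 14 were lower and 5 higher, against 46.3% lower over all 14831 genes. Their median was -0.32, with a range of -0.99 to 0.49 and a summed level of 1132 RPKM in the control and 899 RPKM in the mutant library. Nanos3 (15.2 and 7.16 RPKM), Sall4 (26.6 and 15.9 RPKM) and Dmrtb1 (29.6 and 16.8 RPKM), regulators of spermatogonia, were more than 1.5-fold lower. The 5 higher markers were Nanos2, Neurog3, Sohlh2, Etv5 and Id4, named after their values were seen, and 0 of them passed 1.5-fold with 1 added to each RPKM. Nanos2, at 1.01 and 1.83 RPKM from 31 and 55 reads (read-ratio interval 0.21 to 1.55), and Neurog3, at 2.41 and 3.73 RPKM from 54 and 81 reads (0.11 to 1.15), pass 1.5-fold without it. The study's replicated real-time RT-PCR of P9 testes found Nanos2, Neurog3, Sohlh1, Sohlh2, Kit, Ddx4 and Dazl at similar levels in the 2 genotypes. For Dazl the study also reported a switch towards a shorter splice form and less DAZL protein in P9 mutant testes. All 15 meiotic prophase markers measured were lower, with a median of -0.40 and a summed level of 311 and 226 RPKM, and 4 of these, Smc1b, Syce3, Prdm9 and Mei1, were more than 1.5-fold lower. Smc1b, a meiotic cohesin subunit, was at 25.6 and 11.3 RPKM. The same RT-PCR of the study found Dmc1, Sycp1, Sycp3 and Smc1b lower in the mutant testes. All 11 Sertoli markers were higher, with a median of 0.22 and a range of 0.004 to 0.43, and 0 passed 1.5-fold. The read-ratio intervals of Fshr, Cldn11 and Cst9 included 0.

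The ratio of Esx1 was below that of all 19 spermatogonia and all 15 meiotic prophase markers. Rhox13 was below 18 of 19 and 14 of 15, with Nanos3 and Smc1b lower still, and by plain RPKM ratio it was below 13 of 15, with Mei1 lower too. Of the 7 blood markers, 3 were below Esx1 and 4 below Rhox13. Rhox10 was below 15 of 19 and 8 of 15, so that it lay within the range of both lists. None of the markers of either list was listed at 0. From RNA of whole testes, fewer cells of a type and less RNA per cell cannot be told apart. The study's own cell counts, at later ages, found no significant difference in PLZF-positive spermatogonia or in germ cells at the basement membrane. At those later ages it found prophase spermatocytes almost absent from the mutant testes. The part that the germ-cell markers play in the lower levels of Esx1, Rhox13 and Rhox10 was not tested.

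**Figure D4:**
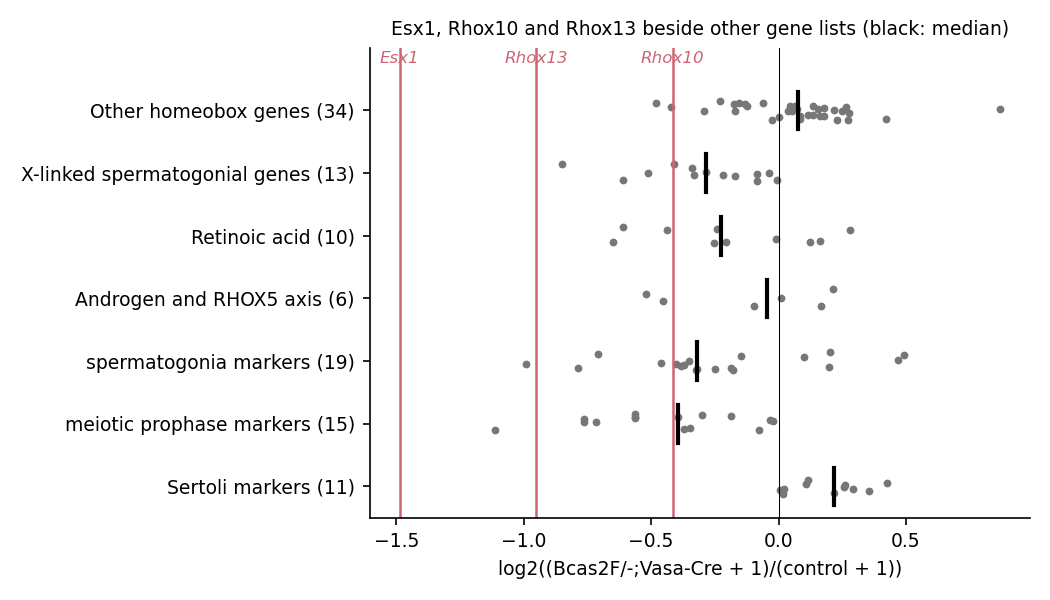
Log2 ratio of RPKM + 1 (Bcas2F/-;Vasa-Cre over control) for the measured genes of 7 lists (points, with the number of genes in brackets and the median as a black bar). Red lines mark Esx1 at -1.49, Rhox13 at -0.95 and Rhox10 at -0.42; the Sertoli markers all lie above 0, and Esx1 lies to the left of every point.

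Genes of 2 signals known to act on these homeobox genes were read in the same way. Of 10 retinoic acid genes, 7 were lower and 3 higher, with a median of -0.23. Crabp1, which binds retinoic acid in the cell, was at 76.1 and 48.1 RPKM (log2 ratio -0.65), and Stra8, a retinoic acid target that gates entry into meiosis, was at 87.2 and 56.8 RPKM (-0.61). These 2 passed 1.5-fold, and 0 genes did so in the other direction. In the study's own replicated real-time RT-PCR of P9 testes, however, Stra8 mRNA did not differ clearly between the genotypes. For STRA8 protein the study's discussion describes a much lower level in the mutant testes, without giving an age there. Aldh1a1 and Cyp26b1, which make and degrade retinoic acid, had ratios of 0.12 and 0.28, while Aldh1a2 and Cyp26a1, named after their values were seen and of the same functions, had ratios of -0.44 and -0.21. Of 6 genes of the androgen and RHOX5 axis, 3 were lower and 3 higher, with a median of -0.04 and 0 past 1.5-fold. Eppin, an androgen-responsive Sertoli gene, was at 38.9 and 26.8 RPKM, with a ratio of -0.52, while Gata4 and Tubb3 had ratios of 0.01 and 0.22.

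Of 9 genes of DNA methylation and histone H3 lysine methylation, 7 were lower and 2 higher, with a median of -0.11 and 0 past 1.5-fold. Uhrf1, which guides maintenance methylation, had a ratio of -0.50, and the de novo methyltransferase Dnmt3a had a ratio of 0.11. Dnmt3b, another de novo methyltransferase, named after its values were seen, had a ratio of -0.48.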

How the data were processed

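RNA was taken from whole P9 testes, 1 library per genotype, and prepared with the NEBNext Ultra kit. The authors aligned paired-end reads with TopHat2 2.0.9 to mm10 (per the labels), used HTSeq to count them, and deposited gene-level RPKM values with zeros kept. The annotation release and gene lengths were not given in the sources used here. Of 39695 entries, 37606 (94.7%) matched GENCODE M21 (GRCm38, the same build), which gave symbols and positions. Whole reads at a whole gene length (tolerance 0.01 base) within 5% of its mean transcript length were recovered for 66.8% of matched entries with reads, the members included, together with library sizes of 19918750 and 19331687. Other entries were rounded to whole reads. The procedure was tested on simulated data drawn with the recovered gene lengths and library sizes, so that this test cannot show these to be right.

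Ratios are log2((RPKM + 1)/(RPKM + 1)) of Bcas2F/-;Vasa-Cre over control for genes whose RPKM averaged 1 or more over both libraries, on the deposited scaling. With 1 library per genotype no p-value was computed. Intervals are exact Poisson for levels and Clopper-Pearson on the share of reads for ratios (95%), and cover counting error only. Library preparation without molecular identifiers means that reads are not independent molecules. Members, gene lists and comparisons were chosen with earlier results of these data known. Named genes are the members, the other Rhox genes, list genes past 1.5-fold or among the 4 most abundant of a list, the 3 X-linked genes nearest to Esx1 in ratio, flanking genes and Bcas2. The window of 5 to 20 RPKM was set after the levels were seen. The list of X-linked homeobox genes outside Rhox is not reported here. No set of protein sequences was used here. Coding sequences were translated to place the homeobox, and identity was computed on coding bases. Alternatives were pseudocounts of 0.1 and 0.01, centring on the median ratio, a common RPKM sum of 1000000 in each library, no minimum or a minimum of 5 on mean RPKM, protein-coding genes only, at least 30 reads, and the ratio of reads without a pseudocount. Python 3.11.15 with pandas 2.3.3, numpy 2.4.6, scipy 1.17.1 and matplotlib 3.10.9 was used.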

Additional observations from a re-analysis of the deposited data

How the results depend on the processing

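The ratios of Esx1, Rhox13 and Rhox10 kept their direction under all 5 alternatives run for each. They ranged from -1.74 to -1.50 for Esx1, from -1.03 to -0.95 for Rhox13 and from -0.46 to -0.41 for Rhox10, within their counting intervals. Rhox5 and Rhox8 gave no value. By plain RPKM ratio, an alternative chosen after seeing the data, the ranks among 528 X-linked protein-coding genes moved from 1 to 2 for Esx1, from 2 to 4 for Rhox13 and from 22 to 26 for Rhox10. The median of the other Rhox genes ranged from -0.08, without a minimum level, to 0.15, and with a minimum of 5 RPKM no gene was left. The number of genes more than 1.5-fold lower was 457 with a pseudocount of 0.1, 485 with 0.01, 468 without a minimum level, 104 with a minimum of 5 RPKM and 160 among protein-coding genes. The number more than 1.5-fold higher was 454 and 491 with pseudocounts of 0.1 and 0.01, 434 after rescaling to a common sum, 511 without a minimum level, 46 with a minimum of 5 RPKM, 51 among protein-coding genes and 87 with at least 30 reads. No paired analysis was possible because each genotype has 1 library. A difference between animals cannot be told apart from one between genotypes, and levels under about 3 reads, such as those of Rhox3 copies, are beyond this depth.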

Other observations

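Other X-linked protein-coding genes past 1.5-fold, apart from Gja6, were not among the genes described. The remaining lower ones were Tsc22d3, an androgen- and glucocorticoid-responsive gene (97.8 RPKM in the control and 57.1 RPKM in the mutant library), Gja6 (1.57 and 0.564 RPKM), Fam90a1b (11.5 and 6.66 RPKM), Alg13 (36.1 and 23.7 RPKM) and Smim10l2a (15.5 and 9.97 RPKM). The 4 higher ones were Mageb2 (0.659 and 2.85 RPKM), Gm6592 (0.990 and 2.35 RPKM), 3830417A13Rik (0.702 and 1.76 RPKM) and Xlr5b (5.81 and 9.24 RPKM), of which only Xlr5b had 100 reads or more in both libraries. These genes were chosen after their values were seen.

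Of 6 Leydig markers, 2 were lower and 4 higher, with a median of 0.20. Cyp17a1, an enzyme of androgen synthesis, was at 94.8 RPKM in the control and 152 RPKM in the mutant library, the only 1 of 6 past 1.5-fold. The most abundant, Hsd3b1, was lower, at 189 RPKM in the control and 168 RPKM in the mutant library. Of 4 peritubular, 3 macrophage and 4 endothelial markers measured, 0 passed 1.5-fold, and their medians were -0.01, -0.19 and -0.10.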
